A study of Mus musculus with 8 samples.

Results

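The response of H3K27ac-anchored chromatin loops to lipopolysaccharide (LPS) was examined in p42-expressing HPC-7 cells by setting the interaction list of LPS-treated cells against that of untreated (UT) cells. Here a loop means 2 bins of 5 kb each that the authors' caller found in contact more often than its model predicted (q-value under 0.01). The UT list held 158233 loops and the LPS list 78591, so that 176977 distinct loops were in 1 or both of them, out of 214313 distinct loops in the 4 lists of the series. Because the lists differ in length, loops were compared after the UT list was shortened to the length of the LPS list, 78591, by smallest q-value.

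The samples were HiChIP libraries from HPC-7, a mouse haematopoietic progenitor cell line grown with stem cell factor. HiChIP joins DNA ends that are close to each other in fixed nuclei and pulls down the joined fragments with an antibody, here one against H3K27ac, the acetylated histone found at active promoters and enhancers. The p42 UT group carried a transgene for p42, the full-length isoform of the transcription factor CEBPA, and received no LPS; the p42 LPS group carried the same transgene and was given 100 ng/mL of LPS from E. coli for 2 h. The p30 UT and p30 LPS groups, with the shorter isoform found in leukaemia, are used only for comparison, to show where p42 cells are alike and where they differ. In all groups the transgene came from a retroviral vector with a GFP marker, and the cells of 1 line kept their own Cebpa gene; per the study's methods, the lines called p42 and p30 HPC-7 carry the isoform fused to a tamoxifen-responsive receptor fragment, so that 4-hydroxytamoxifen brings it into the nucleus. Unfused isoforms were made for constitutive expression, and the HiChIP labels do not name the fusion or the drug. Each group had 2 libraries, pooled by the authors into 1 list, so there is no replicate check: no spread between replicates can be given, and each difference compares those libraries rather than the conditions. Of 30 stem and progenitor genes listed as markers of the line, among them Gata2, Spi1, Runx1, Kit and Cd34, 22 had promoter loops. So did 13 of 30 erythroid and megakaryocyte genes and 5 of 28 B and T cell genes. Over all protein-coding genes 8666 of 21738 did, so the erythroid and megakaryocyte share was near that of all genes.

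LPS, a component of the outer membrane of Gram-negative bacteria, is sensed through Toll-like receptor 4 with the help of the co-receptor CD14. The receptor signals through MYD88 and TICAM1 to kinases that free NF-kB from its inhibitors and activate AP-1 and interferon regulatory factors. These factors bind enhancers and promoters of cytokine genes, of genes for survival factors, and of genes whose products shut the signal off again. C/EBP factors, including CEBPA, bind many of the same enhancers in myeloid cells.

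Sequences that carry letters of the factors above are shown first, for start sites and intergenic stretches whose values follow. All are from GRCm39 (mm39). Capitals mark matches, on either strand, to GGG and TTTCC with any 2 bases between them (NF-kB), TGANTCA (AP-1), TTGCNNAA (C/EBP), or GAAA and GAAA with any 2 bases between them (interferon response element); overlapping matches are counted separately. A match is a description and not a bound site. The first 4 are the 250 bases that end before the start site of a gene. Il6 and Cxcl2 are shown because both gained loops and coverage with LPS, Nfkbia because it holds the NF-kB letters with a ratio near 0, and Isg15 because 3 interferon-type matches overlap there.
Il6 promoter, chr5:30217862-30218111, plus strand: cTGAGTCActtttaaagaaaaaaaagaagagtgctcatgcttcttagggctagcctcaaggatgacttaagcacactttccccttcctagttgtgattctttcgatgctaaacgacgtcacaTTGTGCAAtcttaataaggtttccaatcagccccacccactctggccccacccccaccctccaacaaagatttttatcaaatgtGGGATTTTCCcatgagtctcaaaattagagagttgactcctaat
Cxcl2 promoter, chr5:91051480-91051729, plus strand: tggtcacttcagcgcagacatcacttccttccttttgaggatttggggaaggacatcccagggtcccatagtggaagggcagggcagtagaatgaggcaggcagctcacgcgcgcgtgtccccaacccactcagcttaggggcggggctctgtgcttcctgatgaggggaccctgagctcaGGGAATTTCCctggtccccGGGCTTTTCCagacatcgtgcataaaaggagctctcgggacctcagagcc
Nfkbia promoter, chr12:55539433-55539682, minus strand: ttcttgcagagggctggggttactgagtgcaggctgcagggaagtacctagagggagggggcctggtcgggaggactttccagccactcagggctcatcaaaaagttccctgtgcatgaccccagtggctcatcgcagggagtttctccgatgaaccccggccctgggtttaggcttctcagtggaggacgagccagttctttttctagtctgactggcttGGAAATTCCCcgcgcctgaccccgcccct
Isg15 promoter, chr4:156285304-156285553, minus strand: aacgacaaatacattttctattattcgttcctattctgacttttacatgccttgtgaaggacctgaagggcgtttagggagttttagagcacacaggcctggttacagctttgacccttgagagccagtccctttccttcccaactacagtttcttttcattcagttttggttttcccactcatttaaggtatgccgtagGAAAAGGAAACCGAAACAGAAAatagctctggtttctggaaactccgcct
The Il6 promoter holds GGGATTTTCC, TTGTGCAA and TGAGTCA, the Cxcl2 promoter holds GGGAATTTCC and GGGCTTTTCC, and the Nfkbia promoter holds GGAAATTCCC. The promoters of Ets2, Cish, Nfkb2 and Tnfaip3 have no match to the NF-kB letters in the same window. The next 3 are 60-base windows around NF-kB matches in the intergenic stretch downstream of Ets2, where coverage and loops rose most, in bins 30, 40 and 135 kb from the Ets2 start-site bin. They were chosen for holding a match, and the bins at 25, 195 and 200 kb, with higher ratios, hold none. Only the NF-kB letters are in capitals in them.
Bin 30 kb from Ets2, chr16:95530154-95530213, plus strand: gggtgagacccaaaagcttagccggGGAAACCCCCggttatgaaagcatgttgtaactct
Bin 40 kb from Ets2, chr16:95544396-95544455, plus strand: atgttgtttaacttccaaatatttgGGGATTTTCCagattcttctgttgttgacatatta
Bin 135 kb from Ets2, chr16:95637411-95637470, plus strand: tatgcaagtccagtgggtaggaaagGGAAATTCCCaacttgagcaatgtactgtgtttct

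The UT and LPS lists differed as a whole, and this bears on every value below. The ratio of loops in LPS to loops in UT was 0.497, or 0.596 per contact that entered the caller's model (18999991 contacts in UT and 15831583 in LPS). In p30 cells, whose lists share no library with those of p42, the ratio was 1.18. In p42 cells, loops held 25.2% of the modelled contacts before LPS and 13.6% after it. Bins flagged as H3K27ac peaks had a mean coverage, in reads per bin, of 2911 in UT and 1939 in LPS, while the other bins had 456 and 471, so that peaks stood 6.38-fold over other bins in UT and 4.12-fold in LPS. The enrichment of the libraries thus moved with the treatment. Its part in the results was not tested, and with lists that pool the libraries it cannot be told apart from an effect of LPS on H3K27ac over the whole genome.

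Coverage of single peak bins showed which loci departed from this common fall. Of the bins flagged as peaks, 40939 were in both lists, and their median log2 ratio of LPS over UT was -0.581, from -0.39 in the bins with the lowest coverage to -0.78 in those with the highest. Each ratio was therefore centred on the median of bins of like coverage, in 20 classes. After centring, 586 bins (1.43%) were past 1.5-fold up and 332 (0.811%) past 1.5-fold down; they are called gained and lost here, which means relative to bins of like coverage. Scaled only by the modelled contacts, with no centring, 122 bins were past the same fold up and 5391 down, so the split of calls rests on the centring. Gained bins had a median coverage of 2847 in UT and 3158 in LPS, which the rule for calling them largely fixes. Lost bins had a median of 4524 in UT and 1892 in LPS. Of the gained bins 6.66% held the start site of a protein-coding gene, against 14.2% of the lost bins and 15.7% of all peak bins.

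**Figure D1:**
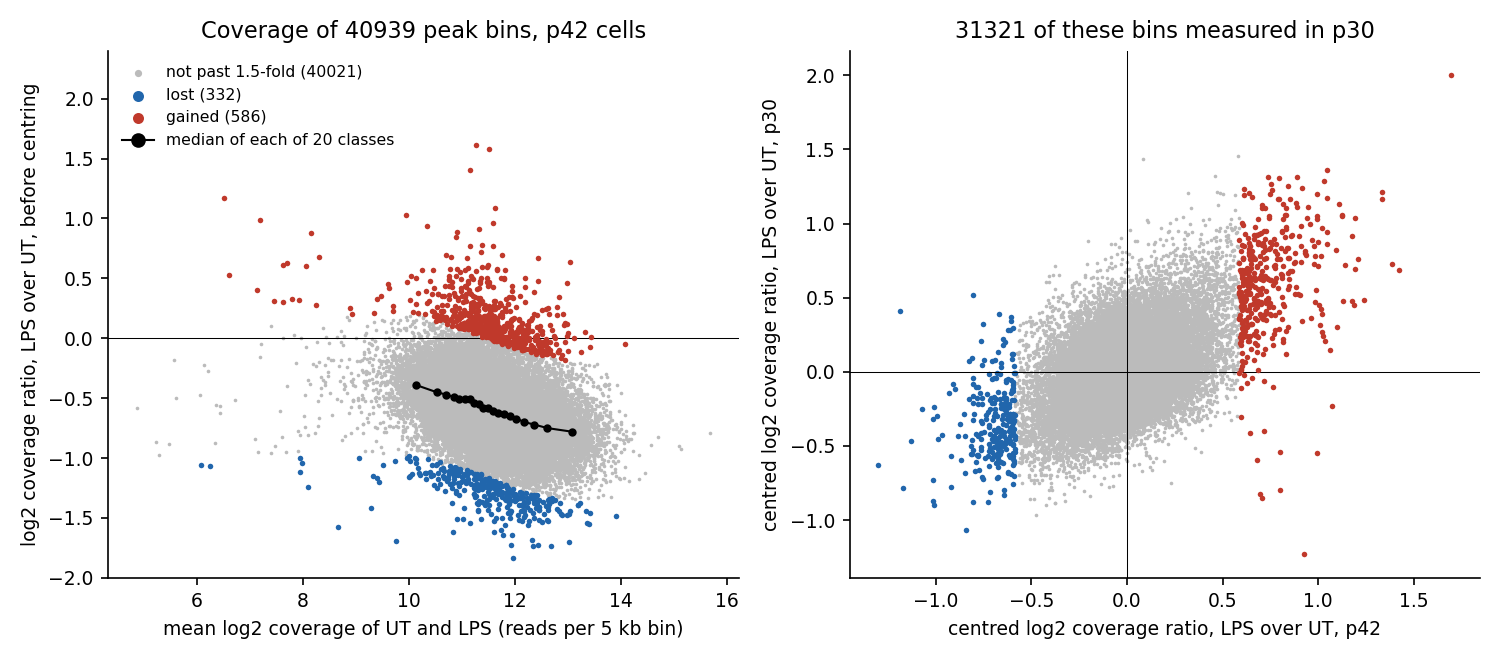
Left, log2 coverage ratio of LPS over UT before centring against the mean log2 coverage (reads per 5 kb bin) for each of 40939 peak bins of p42 cells (points), with the median of each of 20 classes (black line), 586 gained bins in red and 332 lost bins in blue. Right, the centred log2 ratio in p30 cells against that in p42 cells for the 31321 bins measured in both, where 370 of 388 gained bins lie above 0 and 26 of 251 lost bins do.

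Most of the called bins that were measured in p30 cells had ratios of the same sign there. Of the gained bins, 388 were measured in p30, and 370 of them (95.4%) had a centred ratio above 0, against 51.1% of all bins; 199 (51.3%) were past 1.5-fold up there, where 2.19% of all bins were. Of 251 lost bins measured in p30, 26 (10.4%) were above 0 and 39 (15.5%) were past 1.5-fold down, where 0.616% of all were. Across the 31321 bins the ratios of both isoforms were correlated (Pearson r 0.48, Spearman rho 0.40); neighbouring bins share reads and are not independent points. Whether the isoforms differ at any one bin was not tested. On the X chromosome 27 of 397 peak bins (6.8%) were lost and the median centred ratio was -0.19, the lowest of the chromosomes other than Y, where only 5 bins were measured.

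The largest coverage ratio of a single bin lay in the stretch downstream of Ets2, which encodes an ETS family transcription factor activated through MAP kinases. From 50 kb before to 300 kb after the Ets2 start-site bin, 28 bins were measured, of which 25 were gained and 0 lost. The start-site bin itself had a coverage of 2828 in UT and 3349 in LPS, a centred log2 ratio of 0.85. The bin 25 kb downstream had 2164 and 4601 (centred log2 ratio 1.69), and in p30 cells it had 1396 and 5076 (2.00). These bins were already covered in UT, and their read counts rose although the mean coverage of peaks fell. Farther out, the bin at 135 kb had a coverage of 4389 in UT and 6979 in LPS (centred log2 ratio 1.39). The bin at 195 kb had 1399 and 3712 (1.92), and the bin at 200 kb had 1400 and 4289 (2.16, or 4.46-fold), the largest ratio of all 40939 bins. The start site nearest to both bins was that of Psmg1, 94.7 and 89.7 kb away. Which gene these bins act on was not tested.

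Loops of the Ets2 start-site bin followed the same stretch. As deposited, the UT list held 2 of them, one to a bin 10 kb away with 46 contacts and one at 230 kb with 9 contacts. The LPS list held 11, and neither of the UT loops was among them. The LPS loop at 25 kb had 24 contacts where 7.88 were expected, and that at 30 kb had 19 where 5.63 were expected. A further 5 loops reached bins 115 to 140 kb away, of which the one at 135 kb had 20 contacts against 2.03 expected. The remaining 4 lay at 195, 245, 255 and 260 kb, with 11, 13, 22 and 11 contacts. The hubs of this stretch were intergenic bins. At equal length the bin at 245 kb from Ets2 went from 2 to 21 loops and the bin at 135 kb from 1 to 17. The bin at 130 kb went from 0 to 15 and the bin at 195 kb from 0 to 12. The start site nearest to the bin at 245 kb was that of Psmg1, 44.7 kb away. Between intergenic bins 70 kb apart, at 130 and 200 kb, the contacts of a loop in both lists rose from 11 to 37. In p30 cells the Ets2 start site had 3 loops in UT and 5 in LPS.

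**Figure D2:**
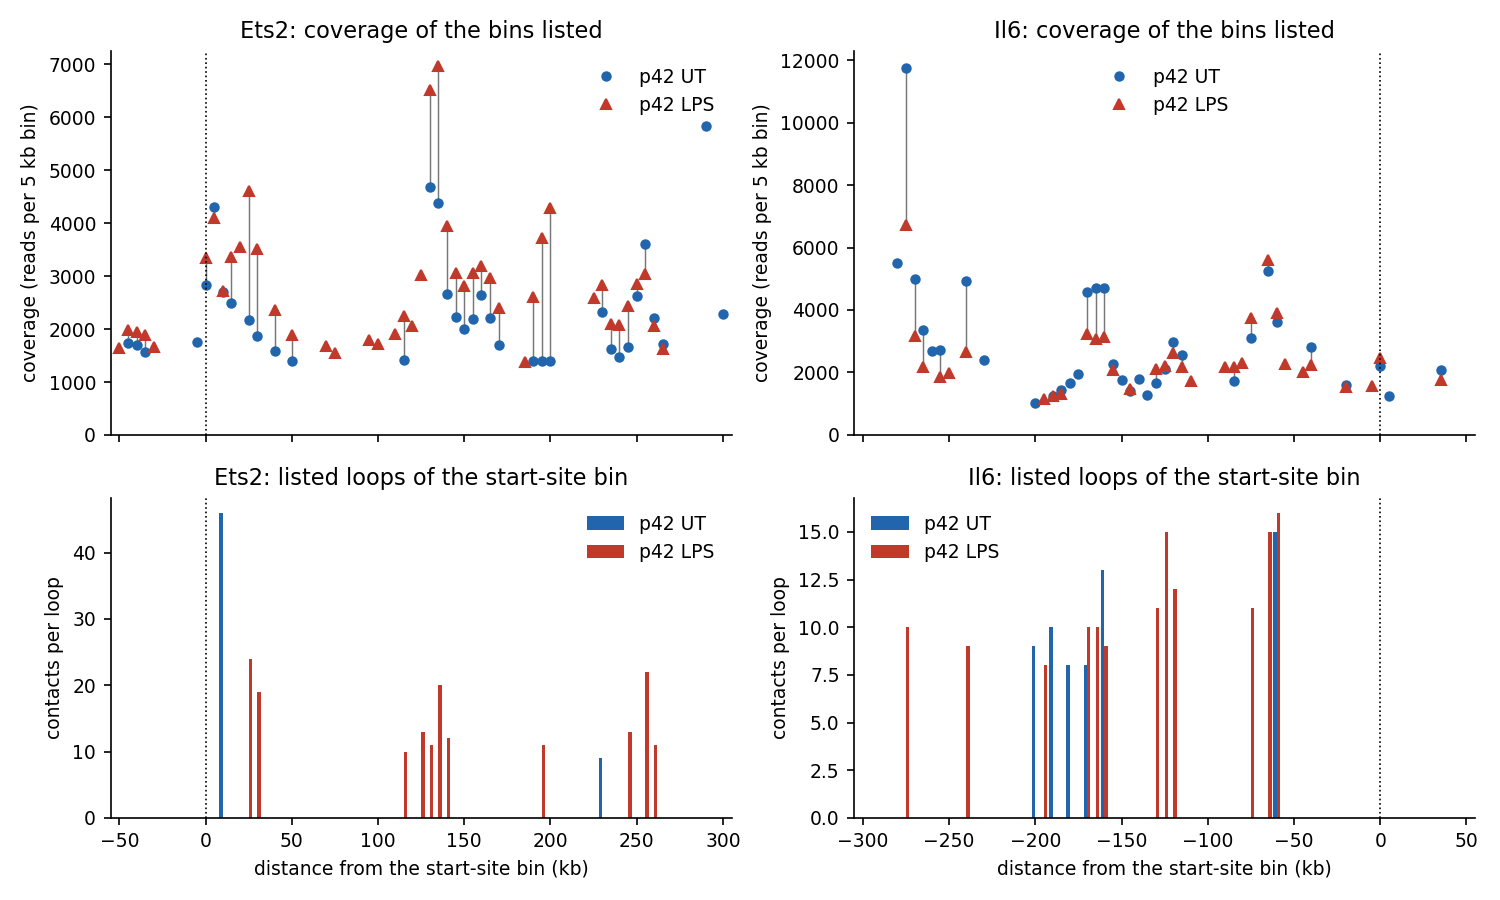
Coverage (reads per 5 kb bin, upper panels) and contacts of the start-site bin's listed loops (lower panels) against distance from the start-site bin in kb, for Ets2 (left) and Il6 (right), in p42 UT (blue) and p42 LPS (red); a missing symbol or bar means that the bin or loop was not listed. Coverage at Ets2 is higher in LPS in nearly all bins with both values, up to 6979 against 4389 at 135 kb, and 11 Ets2 loops are listed in LPS against 2 in UT.

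Il6, which encodes the cytokine interleukin 6, gained loops to intergenic bins upstream. Its start-site bin had a coverage of 2217 in UT and 2467 in LPS (centred log2 ratio 0.70; 0.54 in p30). As deposited, the UT list held 6 Il6 loops and the LPS list 12. Of these, 3 were in both lists: the loop of 60 kb had 15 contacts in UT and 16 in LPS, that of 160 kb had 13 and 9, and that of 170 kb had 8 and 10. In LPS alone there were loops of 65 kb (15 contacts, 2.92 expected), 75 kb (11, 2.39 expected), 120 kb (12), 125 kb (15) and 130 kb (11), and 4 longer ones, of 165 to 275 kb, with 8 to 10 contacts each. The longest ended at the start site of Dnajb6, a heat shock co-chaperone, whose own coverage was 11762 in UT and 6731 in LPS (centred log2 ratio -0.02). Of the bins at these ends, those at 65, 75 and 130 kb were gained: coverage went from 5255 to 5594 at 65 kb (centred log2 ratio 0.81), from 3097 to 3747 at 75 kb (0.91) and from 1654 to 2116 at 130 kb (0.84). Those at 120 kb (2982 and 2607, 0.38) and 125 kb (2118 and 2197, 0.56) were not called. From 300 kb upstream to 50 kb downstream, 6 of 23 measured bins were gained and 0 lost. At equal length Il6 had 2 loops in UT and 12 in LPS, and 2 and 4 in p30.

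Of the 586 gained bins, 247 lay near each other in 60 regions of 3 or more bins, 1435 kb in all. Loops of regions are given at equal length only, where the UT list was cut to its strongest loops. The region with the most gained bins, 11, was chr17:29595001-29665000, which begins within Fgd2 and ends upstream of Pim1, the gene of a survival kinase induced by cytokines. Its loops at equal length went from 93 to 148, and its coverage summed to 49993 in UT and 53742 in LPS; in p30 all 11 bins had ratios above 0. The Pim1 start-site bin contacted this region in both lists. Its loop of 90 kb had 92 contacts in UT and 127 in LPS, and its loop of 95 kb had 72 and 108. The next region, chr19:9895001-9955000, lies between Fth1, the ferritin heavy chain, and Incenp. It had 11 gained bins, with summed coverage of 57925 and 56874, but its loops numbered 79 in UT and 80 in LPS. The next regions, chr16:95615001-95675000 and chr16:95500001-95555000, belong to the Ets2 stretch and went from 4 to 72 and from 3 to 42 loops. Another region, chr14:103250001-103285000, ends at the start site of Acod1, which encodes the enzyme that makes itaconate; its coverage went from 17192 to 24309 and its loops from 9 to 23.

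A few other gained regions were chosen after their values were seen, for lying near genes of the LPS response; how many of the 60 regions do was not counted. The region chr10:18940001-18980000, 50 kb or more from the start-site bin of Tnfaip3 (the ubiquitin-editing NF-kB inhibitor A20), went from 10 to 26 loops, with a coverage of 16455 in UT and 18392 in LPS. Around Cxcl1 and Cxcl2, neutrophil chemokine genes, chr5:91030001-91055000 went from 3 to 17 loops, with a coverage of 8666 and 10895. At the CC chemokine cluster on chromosome 11, chr11:83595001-83640000, which holds Wfdc17, Wfdc18 and Wfdc21, went from 74 to 102 loops, and its loop with the Ccl3 start site had 46 contacts in UT and 76 in LPS. A lone bin 45 kb upstream of Peli1, a ubiquitin ligase of Toll-like receptor signalling, had a coverage of 1679 in UT and 5006 in LPS (centred log2 ratio 2.15). It had 0 loops in UT and 6 in LPS at equal length, and its loop with the Peli1 start site had 11 contacts in the UT list as deposited and 21 in the LPS list. An exon of Nfkb1 also lay in a gained bin, with 1749 and 2980 reads (1.28).

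Of the 332 lost bins, 77 lay in 20 such regions, 460 kb in all. The largest was chrX:139390001-139440000, an intergenic stretch 55.1 kb from Prps1, a nucleotide synthesis gene; its coverage summed to 23121 in UT and 9383 in LPS and its loops numbered 33 and 26. At BC016579 and Tmprss7, chr16:45465001-45495000 went from 43134 to 16764 reads and from 20 to 7 loops. At Plp2, Magix and Prickle3, chrX:7510001-7550000 went from 17537 to 7594 reads and from 13 to 6 loops. The region chr16:16670001-16690000 holds Igll1 and Vpreb1a, which encode the surrogate light chain of early B cells, and Top3b; it went from 26553 to 9123 reads and from 21 to 9 loops. The last of these, intergenic chr15:101215001-101235000, had 33510 reads in UT and 12226 in LPS and 50 and 28 loops. The p30 bins of these regions were mostly below 0 as well: 0 of 8, 0 of 6, 1 of 5, 0 of 3 and 0 of 4 measured bins in these 5 regions had ratios above 0.

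Of the single lost bins, 3 are given here, chosen after their values were seen. An exon bin of Flt3, a progenitor cytokine receptor, had a coverage of 3898 in UT and 1337 in LPS (centred log2 ratio -1.03). The start-site bin of Lin28b, an RNA-binding protein of fetal progenitors, had 4452 and 1562 (-0.93). An intergenic bin at chr6:88090001-88095000, 31.0 kb from Rpn1, had 14915 and 4581 (-0.92), with 20 loops in UT and 9 in LPS. It lay in a lost region of 3 bins, chr6:88090001-88105000. Among the listed loops of the next bin was one to an exon of Gata2, with 18 contacts in UT and 11 in LPS.

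At equal length, 45383 loops were in both lists, 40.6% of all loops in either, and 33208 were in each list alone. Of the loops in the LPS list alone, 14464 (43.6%) were in the UT list as deposited, with larger q-values than its strongest 78591. Loops in LPS alone were longer (median 45 kb, 23.9% over 100 kb) and had fewer contacts (median 15) than those in UT alone (40 kb, 17.6% and 23 contacts). They also joined distal bins to each other more often: 73.4% had no start site at either end, against 66.1% in UT alone. In p30 cells, where the UT list was the shorter as deposited, these differences ran the other way: loops in UT alone had a median of 55 kb and 15 contacts and 71.2% without a start site, and those in LPS alone 35 kb, 18 contacts and 67.6%. Of the loops in LPS alone, 1577 (4.75%) had an end at a gained bin, against 294 (0.885%) of those in UT alone, and 212 (0.638%) had an end at a lost bin, against 725 (2.18%). Coverage and loops come from the same libraries and the caller uses coverage in its model, so these are not independent measures.

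Links between gained distal bins and genes were counted as loops listed at equal length. Of 547 gained bins without a start site, 158 (28.9%) were linked to a start site by a loop in UT and 255 (46.6%) in LPS. Of 285 lost bins without a start site, 117 (41.1%) were linked in UT and 97 (34.0%) in LPS. Over all 34501 such bins the shares were 41.2% and 41.5%. Gained and lost bins were called from coverage in the same libraries, so these shares and the gene counts below are not independent of the calls. The gained bins were linked to 352 genes, of which 151 had more of these links in LPS and 32 had fewer; the lost bins were linked to 240 genes, of which 15 had more and 68 fewer. By number of links, Ets2 led with 0 in UT and 8 in LPS. Rap1b, a small GTPase of integrin signalling, had 0 and 4, Acsl5, a fatty acyl-CoA synthetase, had 3 and 6, and Pfkfb3, a kinase that speeds glycolysis, had 1 and 4.

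At equal length, hubs also appeared where coverage moved little. Loops of these bins were not counted in the lists as deposited, where most gains in promoter loops were absent. An exon bin of Emilin2 on chromosome 17 went from 23 to 38 loops with a centred log2 coverage ratio of 0.20, and an intron bin of Runx1, a master factor of blood progenitors, from 10 to 24 with 0.16. In the other direction, an intergenic bin at chr17:84295001-84300000 between Haao and Zfp36l2, an RNA-decay factor of progenitors, went from 36 to 19 loops (centred log2 ratio -0.54). Of the 15 bins with the largest losses of loops, 10 lay in this stretch between chr17:84210001-84215000 and chr17:84485001-84490000.

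Contacts could be compared directly at the 59847 loops in both lists as deposited. LPS held 41.9% of the contacts of both lists, and the median log2 ratio of LPS over UT was -0.394 (SD across loops 0.405). A two-sided exact binomial test against that share, with Benjamini-Hochberg adjustment at 0.05, called 44 loops (0.0735%) with more contacts in LPS and 133 (0.222%) with fewer; it compares these libraries only. Tested against the caller's expected contacts, which include the coverage of both bins, 0 loops had more and 3 (0.00501%) had fewer. Contact and coverage ratios had a Pearson r of 0.48 across these loops. The expected contacts also model distance and were fitted in each list separately, so the part of coverage in this difference was not tested.

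Loops with more contacts included short ones within gained stretches. Between intergenic bins 10 kb apart, downstream of Cd47 (the gene of a surface signal against phagocytosis), contacts went from 43 to 115. Within an intron of Pde4d, a cAMP phosphodiesterase, they went from 101 to 174. Between an intron of Shisa5 and the start site of Trex1, a DNA exonuclease that limits interferon induction by the cell's own DNA, they went from 91 to 131. Upstream of Acod1 they went from 48 to 84, and from the start site of Cish, a STAT5 feedback inhibitor, to an exon of Hemk1 from 122 to 150. Fewer contacts were found near Sox18, an endothelial factor (253 in UT and 72 in LPS), between Nfe2, a megakaryocyte and erythroid factor, and Copz1 (383 and 164), between the start sites of Mpo, the granule enzyme myeloperoxidase, and Tspoap1 (158 and 52), and between Tnip1, an NF-kB inhibitor that binds A20, and a bin 45 kb away (69 and 11). All loops in this paragraph passed the test against the shared proportion, in the direction given.

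Gene by gene, 8666 protein-coding genes had a promoter loop, one with an end in the 5 kb bin of their start site, in either list at equal length. More loops were found after LPS for 2758 (31.8%) and fewer for 4024 (46.4%), with a mean difference of -0.411 loops (SD across genes 1.98). A gene was called at a difference of 4 or more loops: 169 genes (1.95%) gained and 511 (5.9%) lost. In the lists as deposited, 4 genes gained as many, Ets2, Il6, Bola2 and Acod1, and 3830 lost; at 39000 loops per list the difference of Bola2 was 3, below the call. Of the 169 gaining genes, 103 of the 166 with measured start-site coverage had a centred ratio above 0, where 29.7% of all 7260 measured genes did. Of the 511 losing genes, 376 of 479 were below 0, where 70.2% of all were. In p30 cells 105 of the 169 had more loops after LPS and 44 fewer, where 39.5% of the genes had more and 31.9% fewer; of the 511, 234 had more and 200 fewer.

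The 10 largest gains at equal length were at Ets2 (0 to 11 loops), Gm49909 (8 to 19), Il6 (2 to 12), Tnfaip3 (9 to 18), Wfdc21 (10 to 18), Rnps1 (6 to 14), Bola2 (8 to 16), Cish (6 to 13), Hlx (5 to 12) and Il10rb (10 to 17). In the lists as deposited, the differences of Tnfaip3 (20 and 18), Wfdc21 (23 and 18), Rnps1 (16 and 14) and Il10rb (19 and 17) had the opposite sign, and Gm49909 (19 and 19) and Hlx (12 and 12) had no difference. At 39000 loops per list, those of Wfdc21 (2), Rnps1 (1) and Il10rb (2) were below the call too. Gm49909 shares its start-site bin with Myl12a, so its loops cannot be given to either gene alone. Il10rb encodes a receptor chain for interleukin 10, Hlx a homeobox factor of blood progenitors and Wfdc21 a secreted whey acidic protein. Centred start-site coverage was also above that of like bins at Ets2, Il6, Tnfaip3 (4492 to 4557, centred log2 ratio 0.72), Wfdc21 (4423 to 4371, 0.68), Cish (3512 to 3844, 0.78) and Hlx (4895 to 4103, 0.44), and hardly at Gm49909 (0.01), Rnps1 (0.05) and Bola2 (-0.03). In p30 cells Tnfaip3 went from 7 to 20 loops, whereas Hlx went from 5 to 2.

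Among the largest losses were those at Septin2 (21 to 10 loops), Rabif (23 to 12), Cbl (16 to 6), Gmfg (19 to 9), Fcer1g (24 to 14), Atp2b4 (16 to 7), Ramp1 (21 to 12), Ascc2 (13 to 4) and Tex2 (16 to 7). Cut to 39000 loops per list, the difference of Tex2 turned to 2 more loops in LPS, and those of Septin2 (-3) and Atp2b4 (-2) were no longer called. Cbl is a ubiquitin ligase that ends cytokine receptor signals, Fcer1g the signalling chain of Fc receptors and Atp2b4 a calcium pump. Centred coverage ratios at these start sites ran from -0.50 at Atp2b4 to -0.05 at Rabif. At Ramp1, a receptor-modifying protein for the neuropeptide CGRP, 11 loops were in both lists as deposited, with 595 contacts in UT and 268 in LPS; the LPS share of 31.1% (95% Wilson interval 28.1 to 34.2) lay below the 41.9% of all shared loops. Intervals of this kind cover counting error only. Both Ramp1 (26 to 16) and Atp2b4 (23 to 16) also had fewer loops in p30 after LPS, while Septin2 (13 to 19) and Gmfg (18 to 24) had more.

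**Figure D3:**
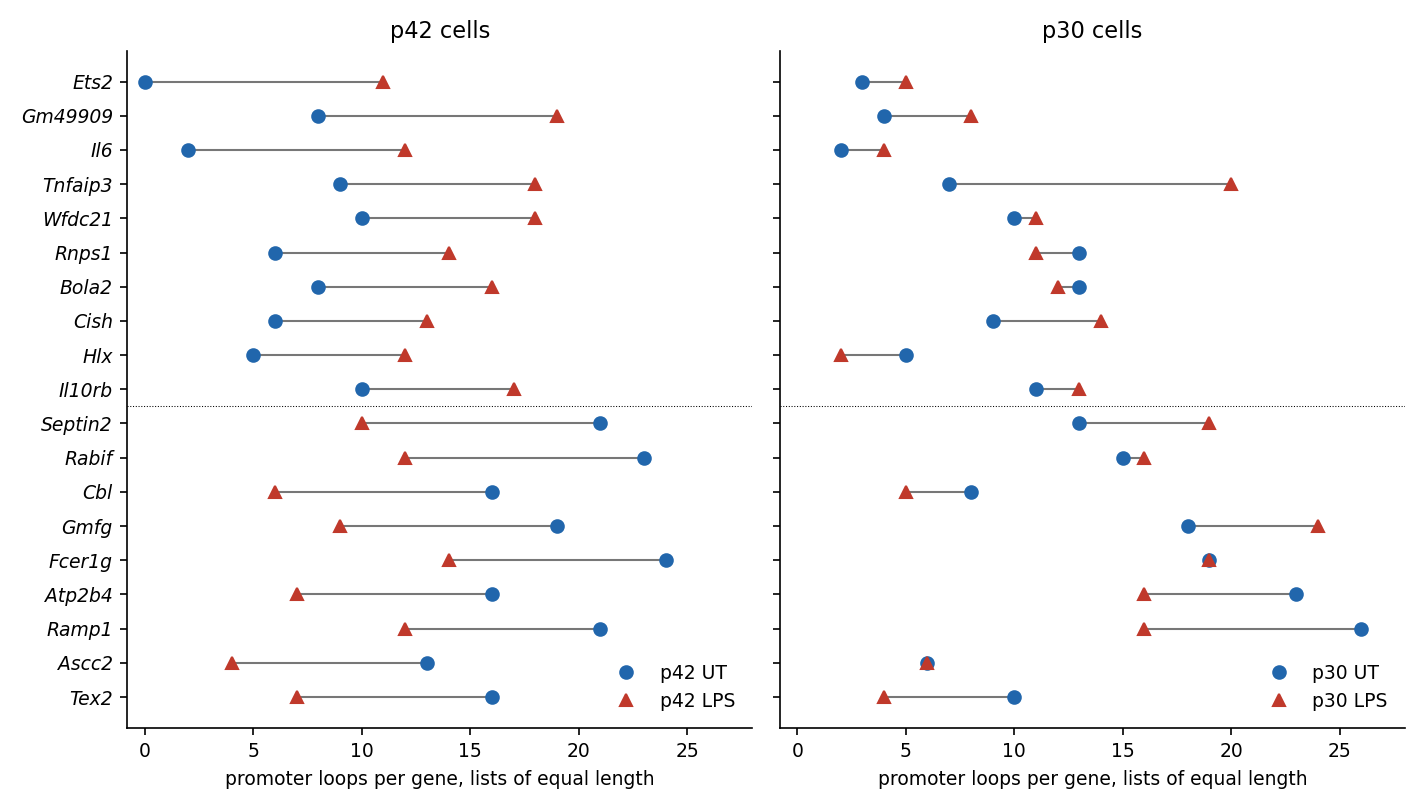
Promoter loops per gene at equal list length in UT (blue circles) and LPS (red triangles), for the 10 genes with the largest gains (above the dotted line) and 9 of those with the largest losses (below it) in p42 cells (left), with the same genes in p30 cells (right). Tnfaip3 rises in both, from 9 to 18 and from 7 to 20, while Septin2 falls from 21 to 10 in p42 and rises from 13 to 19 in p30.

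By start-site coverage, 40 genes (0.551%) were past 1.5-fold up and 51 (0.702%) past 1.5-fold down. The 10 largest ratios up were at Trex1 (6909 to 9489, centred log2 ratio 1.24), Acod1 (2167 to 3277, 1.18), Ren1 (1.13), Cxcl2 (1459 to 2046, 0.96), Ets2 (0.85), Pim2, another survival kinase (0.82), the MHC class I-like gene H2-T24 (0.79), Ikbke (0.79), Cish (0.78) and Phlda1 (0.77). At Trex1, 8 shared loops had 334 contacts in UT and 435 in LPS, an LPS share of 56.6% (53.0 to 60). At Acod1 the share was 58.5% (50.7 to 65.9) over 2 loops, and at Cish 56.4% (52.9 to 59.7) over 9. These intervals lie above the 41.9% of all shared loops, whereas those of Cxcl2 (50.0%, 39.2 to 60.8) and Pim2 (46.8%, 41.2 to 52.5) hold it, and Ets2, Ren1 and Phlda1 had no shared loop. The 10 largest ratios down were at Cwc22rt6 (705 to 236, -1.19), Igll1 (10092 to 3044, -1.01), Lin28b (-0.93), Zscan10 (-0.82), Zfp467 (-0.81), the cell cycle regulator Fbxo5 (-0.81), Fut7, which makes selectin ligands (7709 to 2747, -0.79), Palm (-0.78), Dnah6 (-0.76) and Dctn6 (-0.76).

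Of the 5 NF-kB subunit genes, 4 had measured coverage, and none of these was past 1.5-fold. All 4 had centred log2 ratios above 0, where 29.7% of all genes did: Nfkb1 0.47 (4111 reads in UT and 3630 in LPS), Nfkb2 0.42 (4661 and 3932), Rela 0.32 and Rel 0.28. Their median was 0.37 (0.26 with 1 median for all bins), where that of all 7260 genes was -0.08; read counts at Nfkb1 and Nfkb2 themselves fell, by less than at bins of like coverage. Promoter loops were called for Nfkb2 alone, which encodes the p100 precursor of the non-canonical pathway (7 to 11 loops; 12 to 17 in p30); in the lists as deposited it had 11 in both. Rel went from 2 to 3 loops, Rela from 8 to 9, Nfkb1 had 1 in each list and Relb went from 1 to 0.

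Among inhibitors and feedback regulators of inflammatory signalling, 29 of 30 genes had promoter loops. Of these 18 had more after LPS, 9 fewer and 2 as many, with a median difference of 1 against 0 over all genes; in the lists as deposited the median was -4. Coverage ratios were above 0 at 18 of 29 genes, where 29.7% of all were, and 4 were past 1.5-fold up, where 0.551% of all were. Their median was 0.15, and 0.02 with 1 median for all bins. Besides Tnfaip3 and Cish, Bcl3, a nuclear IkB protein, went from 3 to 6 loops (5360 and 4993 reads, centred log2 ratio 0.61) and Irak3, a kinase-dead brake on Toll-like receptors, from 1 to 2 (0.61). N4bp1 went from 0 to 4 loops and Socs1, which blocks JAK kinases, from 1 to 5. Nfkbia, the gene of IkB alpha, had 17 loops in UT and 20 in LPS but a coverage of 5859 and 3521 (-0.04), while in p30 it went from 9 to 19 loops (0.59). Tnip1 went the other way, from 8 to 4 loops (6028 and 2774 reads, -0.45). Dusp1, a MAP kinase phosphatase, had 36 and 34 loops, Ier3 27 and 24, Socs3 12 and 14, Nfkbiz 4 and 5 and Zfp36, an RNA-decay factor, 5 and 6; none of these was called.

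Of 43 cytokine and chemokine genes, 29 had promoter loops, 14 more and 12 fewer after LPS, where 31.8% and 46.4% of all genes did. Their median loop difference was 0, the same as over all genes, and coverage ratios were above 0 at 14 of 24 (median 0.11), where 29.7% of all were; 3 were past 1.5-fold up, where 0.551% of all were. Promoter loops were gained at 3 genes, of which Il6 gained the most. Csf3, the gene of G-CSF, came next and went from 8 to 14 loops with coverage of 4486 and 2886. In the lists as deposited Csf3 did not gain 4 or more. Cxcl2 went from 1 to 5 loops, with 5 in each list as deposited and a difference of 2 at 39000 loops. At Il1b coverage was 2646 in UT and 2662 in LPS (centred log2 ratio 0.59), with 0 loops and 2. Ccl5 had 3 and 5 loops (0.57). Cxcl10, an interferon-induced chemokine, had no loop in the UT list as deposited and 2 in LPS, of 20 kb with 28 contacts (6.75 expected) and 25 kb with 18 (5.22 expected). The CC chemokine genes had many loops in both lists: Ccl9 23 and 23, Ccl3 20 and 17, and Ccl4 11 and 12, of which Ccl4 had the highest centred ratio (0.40, with 9925 and 7605 reads). Tnf, which shares its bin with Lta, had 13 and 12 loops and 8771 and 5632 reads (0.11). Il27 went from 5 loops to 1.

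In the signalling chain from the LPS receptor to NF-kB, 24 of 31 genes had promoter loops, 9 more and 8 fewer, where 31.8% and 46.4% of all genes did. Coverage ratios were above 0 at 13 of 23, where 29.7% of all were. The largest gain was at Ikbke, the IKK-related kinase that activates interferon regulatory factors. It went from 3 to 9 loops, with 8811 reads in UT and 8845 in LPS (centred log2 ratio 0.79), and from 1 to 6 loops in p30 (1.17); as deposited, the p42 lists held 12 and 9, a difference of the opposite sign. Its 4 shared loops had an LPS share of contacts of 56.1% (47.0 to 64.9). Ticam1, the adaptor of the interferon branch, went from 8 to 12 loops (0.46), Tlr2 from 3 to 6 (0.41) and Map3k8, a kinase upstream of ERK, from 1 to 4. Traf1 went from 0 to 1, with 2140 reads and 2328 (0.64). Cd14 had 9 loops in each list (0.20), Tlr4 had 0 and 2 (0.14), and Tab2 went from 7 to 3.

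Surface receptors, enzymes and survival genes known to be induced through NF-kB are the next list: 15 of 34 had more loops and 14 fewer, where 31.8% and 46.4% of all genes did. Coverage ratios were above 0 at 19 of 33, where 29.7% of all were, and the median coverage ratio was 0.03, which turned to -0.08 when 1 median was used for all bins. Acod1 (2 to 6 loops) and Pim1 (16 to 20 loops, 12414 and 10554 reads, 0.55) were called as gains in loops. Stat5a, a transcription factor downstream of cytokine receptors, went from 10 to 5 loops and Pde4b, a cAMP phosphodiesterase, from 16 to 12. Coverage was below that of like bins at Cd69, a lymphocyte activation marker (-0.53), Cd44, a hyaluronan receptor (-0.40), and Icam1, an adhesion molecule (-0.38, with 3 loops and 4). Ptgs2, which encodes cyclooxygenase-2, had 4 loops in each list and Sod2, mitochondrial superoxide dismutase, 3 and 5.

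Of 14 AP-1 genes, 6 had more loops and 4 fewer, where 31.8% and 46.4% of all genes did. Their coverage ratios were above 0 at 7 of 13, where 29.7% of all were, with a median of 0.00 against -0.08 over all genes. Fos had 17 loops in UT and 14 in LPS, with 4643 and 2698 reads (centred log2 ratio -0.15), and its 14 shared loops had an LPS share of contacts of 40.7% (37.1 to 44.4), an interval that holds the 41.9% of all shared loops. Jun had 6 loops in each list (-0.12), Junb 3 and 2 (0.00) and Fosb 5 and 3. Members with more loops included Jdp2, a repressor of the family (4 to 9), Maff (3 to 6), Atf3 (2 to 4) and Batf3 (0 to 3), of which Jdp2 alone passed the call. Batf3 was among 209 genes (2.1%) that had a promoter loop in the LPS list as deposited and none in the UT list. Of 23 other immediate early genes with measured coverage, 15 had ratios below 0, a share near the 70.2% of all genes, and their median was -0.17. Among them Id2 (-0.63), Csrnp1 (8 to 3 loops, 8581 and 3459 reads, -0.59) and Nr4a2 (-0.45) were the lowest. Egr1 had 8 and 6 loops (-0.17), Myc 1 and 3 (-0.17), and Ier5 went from 2 to 6 (0.32).

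Of 47 interferon-response genes, 29 had promoter loops and 21 had measured start-site coverage. Of these 21, 19 had ratios above 0, where 29.7% of all genes did, and 5 were past 1.5-fold up, where 0.551% of all were. In loops 16 of 29 had more and 7 fewer (median difference 1, and -1 in the lists as deposited). Irf9, the DNA-binding part of the interferon-activated complex, had 4624 reads in UT and 4852 in LPS (centred log2 ratio 0.77) and 3 and 5 loops. Gbp2, a guanylate-binding protein, had 2188 and 2564 (0.77), Isg15, a ubiquitin-like modifier, 2406 and 2738 (0.73), Parp14 1378 and 1577 (0.64) and Trim25, a ligase of RNA sensing, 5356 and 5008 (0.62). In loops the largest gains were at Irf2 (6 to 10), at Parp9 and Dtx3l, which share a start-site bin (2 to 6), and at Bst2, the virus tether tetherin (1 to 4). Irf1 had 11 loops in each list (0.06). In p30 the list's median ratio was 0.23, beside 0.16 in p42.

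Of the 6 genes of the CEBP family, 3 lost 4 or more promoter loops, where 5.9% of all genes did. Fewer loops after LPS were found for 5 of the 6, where 46.4% of all genes had fewer, and the median difference was -3.5 (-10.5 in the lists as deposited and -2 at 39000 loops per list). At 39000 loops the difference of Cebpd was -2 and no longer called, and that of Cebpe was 2. Cebpd went from 13 to 7 loops, with 5267 reads in UT and 2359 in LPS (centred log2 ratio -0.53), and its 7 shared loops had an LPS share of contacts of 35.2% (30.6 to 40), below the 41.9% of all. Its lost loops ran into the neighbouring gene Spidr, 20 to 255 kb away. Cebpa itself went from 10 to 5 loops (3501 and 2226 reads, -0.08). Cebpe, the factor of late granulocytes, went from 19 to 15 (12582 and 6268 reads, -0.22). Cebpg had 6 and 3 loops. Cebpb, an LPS-induced member, was the exception at equal length, with 20 and 21 loops and a ratio of 0.21. In the lists as deposited Cebpb had 33 loops in UT and 21 in LPS, so it was no exception there. In p30 cells Cebpa went from 10 to 4 loops and Cebpe from 5 to 1, whereas Cebpd had 5 and 6.

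Among granulocyte genes, 14 of the 18 measured had coverage ratios below 0 (median -0.14), a share near the 70.2% of all genes; 2 were past 1.5-fold down and 1 past 1.5-fold up, where 0.702% and 0.551% of all were. With 1 median for all bins the list's median was -0.25. Mpo had 18014 reads in UT and 6570 in LPS (centred log2 ratio -0.67) with 10 and 9 loops, and Gfi1, a repressor needed for neutrophils, had 3067 and 1335 (-0.69). The elastase and proteinase 3 genes Elane (-0.37) and Prtn3 (-0.35) were lower as well, while Camp (0.66) and Hp, haptoglobin (0.46), were higher; Ngp went from 7 loops to 2. Of 22 progenitor genes, 19 had ratios below 0 (median -0.18, against -0.08 over all genes), none past 1.5-fold, and 12 had fewer loops and 6 more, shares near the 46.4% and 31.8% of all genes. Cd34 had 13714 reads and 5455 (-0.55) and went from 10 to 4 loops. Kit, the stem cell factor receptor, had 4352 and 2172 (-0.40). The paired cytokine receptor genes Csf2rb (10 to 6 loops) and Csf2rb2 (5 to 9) moved in opposite directions. Spi1, the gene of PU.1, had 7 and 10 loops and a ratio of 0.12.

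Lists outside the LPS response were measured for comparison; over all genes 31.8% had more loops, 46.4% fewer and 29.7% a coverage ratio above 0. Over 60 cytosolic ribosomal protein genes, 16 had more loops and 35 fewer, and the median coverage ratio was -0.05 (-0.16 with 1 median for all bins). Cell cycle genes had 9 more and 10 fewer (median coverage ratio -0.16), with Rb1 at 2 and 8 loops, Ccnd2 at 2 and 7 and Mcm5 at 8 and 2. ATF4-dependent stress-response genes had 5 more and 8 fewer loops, among them Ddit3 (12 to 6) and Sesn2 (11 to 6), with coverage ratios above 0 at 7 of 11 (median 0.08). As for other cell types, 13 erythroid and megakaryocyte genes had a median coverage ratio of -0.21 over the 11 measured, and all 5 measured B and T cell genes were below 0 (median -0.13), where 70.2% of all were, with Igll1 the lowest. The summed loops of the erythroid and megakaryocyte list were 62 in UT and 59 in LPS, and those of the B and T cell list 7 and 7.

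**Figure D4:**
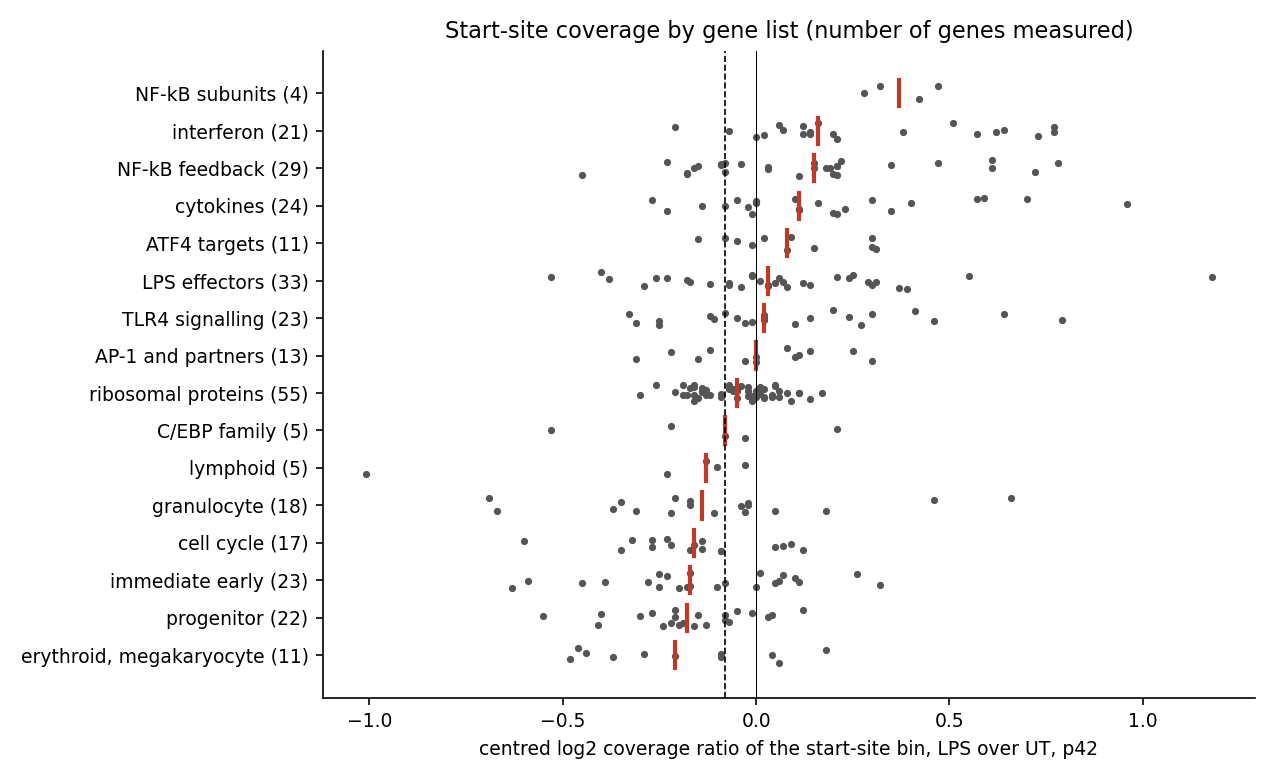
Centred log2 coverage ratio of the start-site bin, LPS over UT in p42 cells, for each gene (points) of 16 lists, with the list's median (red bar) and the number of genes measured; the dashed line marks the median of all 7260 genes, -0.08. The 4 NF-kB subunit genes lie between 0.28 and 0.47, and 19 of 21 interferon-response genes lie above 0, while progenitor genes have a median of -0.18.

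Motif letters were counted in the 5 kb bins. The NF-kB letters were in 18.4% of all 40939 peak bins, in 137 of 586 gained bins (23.4%) and in 60 of 332 lost bins (18.1%). From a centred log2 ratio of -1 up to 0.32 the share was near that of all bins; below -1, 1 of 12 bins held them (8.33%). In the classes above, which include neighbouring bins of the Ets2 stretch, 484 of 2255 bins between 0.32 and 0.58 held them (21.5%), and 20 of the 66 bins with a centred log2 ratio above 1 held them (30.3%), as did 117 of 520 between 0.58 and 1 (22.5%). The AP-1 letters TGANTCA were in 77.4% of all bins and 85.3% of gained bins, with means of 1.53 and 1.87 per bin. The C/EBP letters TTGCNNAA were in 85.4% of all, 88.9% of gained and 87.0% of lost bins, and the composite TGATGCAA, to which C/EBP and ATF factors can bind as a pair, in 11.3%, 14.8% and 15.1%. The interferon response letters were in 49.2% of all and 46.8% of gained bins, and the PU.1 letters GAGGAAGT in 30% and 31.1%. Median GC content was 45.9% in all bins and 44.9% in gained bins.

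**Figure D5:**
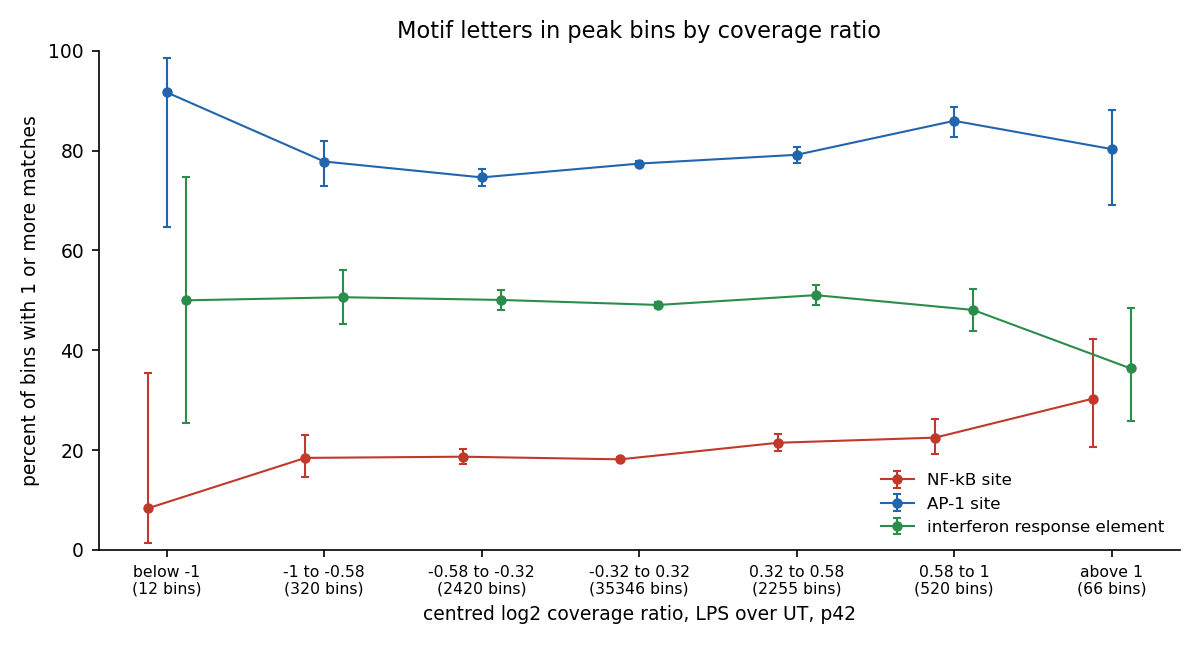
Percent of peak bins with 1 or more matches to the NF-kB, AP-1 and interferon response letters, by class of the centred log2 coverage ratio in p42 cells; bars are 95% Wilson intervals, which treat bins as independent, and the number of bins is under each class. The NF-kB share is 18.1% in the middle class and 30.3% above 1.

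In the 250 bases before start sites, the NF-kB letters were in 1.57% of the 8666 genes with promoter loops, in 9 of 169 genes that gained 4 or more loops (5.33%) and in 5 of 511 that lost as many (0.978%). Among genes past 1.5-fold in start-site coverage they were in 3 of 40 up (7.5%) and 0 of 51 down. The AP-1 letters were in 4.36% of the looped genes, in 7.69% of those that gained loops, in 3.33% of those that lost them, in 6 of 40 that gained coverage (15%) and in 4 of 51 that lost it (7.84%). The interferon response letters were in 2.82%, 4.73%, 2.94%, 1 of 40 (2.5%) and 5 of 51 (9.8%). The windows differed in CpG dinucleotides, with a median of 13 in the looped genes, 5.5 in genes that gained coverage and 9 in those that lost it. Most genes with gains, Ets2 among them, had no NF-kB match in this window.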

How the data were processed

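H3K27ac HiChIP libraries of HPC-7 cells, 2 per group, were analysed from the interaction lists deposited by the authors, 1 per group. According to the study's methods, reads were mapped to mm39 with BWA-MEM (version 0.7.17), ligation events were recorded and duplicates removed with pairtools, and loops were called with FitHiChIP; how the libraries were pooled is not stated. Deposited contact counts and bin coverage counts are whole numbers without normalization. The expected count, deposited by the authors' caller, models distance and coverage. The deposited fraction is the expected count over the modelled contacts, which were derived from that quotient. The coverage bias, a ratio of a bin's coverage to its class mean, and the q-value, from a binomial p-value, are those the authors deposited.

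Lists were cut to 78591 loops by smallest q-value (up to 6.98e-05 in UT and 0.01 in LPS). Promoter bins hold the canonical start site of 21738 protein-coding genes of the GENCODE annotation of GRCm39. Coverage ratios, log2 of the deposited counts, were centred on medians of 20 classes and called past 1.5-fold; loop differences were called at 4 or more. Regions were runs of 3 or more called bins with gaps of up to 2 bins. Shared loops were tested by a two-sided exact binomial test (SciPy 1.17.1) with Benjamini-Hochberg adjustment at 0.05. Shares have 95% Wilson intervals. Python 3.11.15 with pandas 2.3.3 and numpy 2.4.6 was used; the statistics were tested on simulated data. Named genes were a panel of 30, up to 4 members per list with large differences, the 10 largest differences in each direction by loops and by coverage, and the 5 largest regions in each direction; others are marked as chosen after their values were seen, or serve to complete a list. Members, lists and comparisons were chosen with earlier results of these data known. Alternatives were shorter lists, lists as deposited, other centring, scaling, thresholds, distances and windows. Sequences are from the GRCm39 genome. A gene that the naming rule selects is not reported here.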

Additional observations from a re-analysis of the deposited data

Results flagged for a closer look

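The number of loops went in opposite directions with LPS in the isoforms: the ratio of LPS over UT was 0.497 in p42 cells and 1.18 in p30 cells. Promoter loops of 2 genes among those with the largest differences did the same at equal length, by 4 or more loops in each isoform. Opposite differences below 4 in p30, such as at Hlx (7 in p42 and -3 in p30), were not flagged. Septin2, which encodes a cytoskeletal GTPase, had a difference of -11 in p42 and of 6 in p30, and Gmfg, an actin regulator of leukocytes, had -10 and 6. With 1 list per group, none of these differences between isoforms was tested. The ratio of peak to other coverage also moved in opposite directions, from 6.38 to 4.12 in p42 and from 3.95 to 5.70 in p30; its part in these differences was not tested.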

How the results depend on the processing

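No paired analysis was possible because each list pools both libraries of its group; for the same reason no library could be left out. The loop ratio of 0.497 became 0.455 at q under 0.001, 0.398 at q under 1e-05, 0.477 at 20 kb or more and 0.672 with adjacent pairs merged. Shared loops, 40.6% of the union, were 33.8% in the lists as deposited, 41.7% at 39000 loops per list and 74.5% with 1 bin of slack. The 169 gaining and 511 losing genes became 4 and 3830 as deposited, 85 and 203 at 39000 loops, 625 and 1339 with 1 more bin on each side, and 39 and 134 at 6 or more loops. The 586 gained and 332 lost bins became 122 and 5391 scaled by modelled contacts and 66 and 12 past 2-fold; with 1 median for all bins 466 of the 586 and 255 of the 332 were called again. The 44 and 133 shared loops became 0 and 3 against expected counts and 10 and 38 at 20 kb or more, and the 44 became 75 among loops in all 4 lists. In the lists as deposited, median loop differences reversed for NF-kB subunits (-1), feedback regulators (-4), interferon-response genes (-1), B and T cell genes (-2) and the panel (-3), and single genes for Ikbke (-3), Il10rb (-2), Rnps1 (-2), Tnfaip3 (-2) and Wfdc21 (-5). At 39000 loops the medians of erythroid and megakaryocyte genes (1) and B and T cell genes (-1) reversed, as did Cebpe (2) and Tex2 (2). With 1 median, the coverage median of NF-kB-induced effector genes reversed (-0.08), and those of NF-kB subunits (0.37 to 0.26), feedback regulators (0.15 to 0.02), granulocyte genes (-0.14 to -0.25) and ribosomal protein genes (-0.05 to -0.16) moved. A list gives no contacts for pairs it does not hold, so a loop in 1 list alone is not shown to be absent from the other.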
